A study of Mus musculus with 2 samples.

Results

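Pancreatic transcripts of the trypsinogens, the chymotrypsinogens and the trypsin inhibitor were compared between 2 pools of RNA, each read on 1 Affymetrix 3' expression array. The pools came from male offspring of C57BL/6J mothers, aged 10 weeks, and during pregnancy the mothers of one group ate control diet and those of the other a methionine-deficient diet. All offspring were weaned at 3 weeks, then ate control diet and received no treatment of their own. The number of mice and litters in a pool is not given in the sources used here. Members were all probe sets annotated to Prss1, Prss2, Prss3, Try4, Try5, Try10, Ctrb1, Ctrc, Ctrl or Spink1, and 11 of 45101 probe sets met this rule. They cover 9 of the 10 genes, out of 19324 genes named on the array, since no probe set carries the name Try10. Of the 11, 9 name a single gene, 1 names both Try4 and Try5, and 1 names Prss1 and Prss3 together with the trypsinogen genes Gm5771 and Gm10334. With n = 1 array per group no difference has a p-value, and how far mice or arrays vary was not measured.

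Trypsinogens and chymotrypsinogens are the inactive forms of digestive serine proteases, which acinar cells of the pancreas store in zymogen granules and release into the gut. There enteropeptidase cuts trypsinogen to trypsin, and trypsin then activates the other zymogens, more trypsinogen included. Inside the pancreas the small protein encoded by Spink1 (Spink3 in older mouse naming) blocks trypsin that is formed too early. Mice carry a row of closely related trypsinogen genes on chromosome 6, so a probe set designed for 1 of them can bind transcripts of another.

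The sequences just before the start sites are shown for the 4 genes named by the shared Prss1 and Prss3 probe set and, for comparison, for Try4 and Prss2. These bases lie before the annotated transcripts, so they do not tell which transcripts a probe set binds. Of the 10 listed genes 6 were matched in the RefSeq promoter table (GRCm38.p6). Each line is the 120 bases before the annotated start, 5' to 3' on the strand of the gene. Capitals mark TATAAA, the core of a TATA box, CACCTG, an E-box of the kind bound by the acinar factor PTF1A, and TTTCCC, the core of the TC-box that the PTF1 complex binds beside it, each searched on both strands, with no overlap between marked motifs in these windows.
Prss3: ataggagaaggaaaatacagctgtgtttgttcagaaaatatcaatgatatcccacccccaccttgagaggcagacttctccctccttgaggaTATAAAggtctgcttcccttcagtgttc
Gm10334: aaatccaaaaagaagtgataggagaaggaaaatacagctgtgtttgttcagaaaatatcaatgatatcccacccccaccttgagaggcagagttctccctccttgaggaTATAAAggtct
Prss1: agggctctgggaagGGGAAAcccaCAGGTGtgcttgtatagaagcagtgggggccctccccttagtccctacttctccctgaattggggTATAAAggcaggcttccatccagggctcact
Gm5771: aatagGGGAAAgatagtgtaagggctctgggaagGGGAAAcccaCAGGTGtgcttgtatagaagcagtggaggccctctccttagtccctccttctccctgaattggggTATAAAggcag
Try4: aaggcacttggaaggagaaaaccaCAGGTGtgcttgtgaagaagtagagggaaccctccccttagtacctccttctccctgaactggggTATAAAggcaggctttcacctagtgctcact
Prss2: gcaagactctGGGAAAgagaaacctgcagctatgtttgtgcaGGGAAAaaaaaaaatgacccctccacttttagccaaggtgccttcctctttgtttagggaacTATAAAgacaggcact
The Prss3 window is chr6:41377614-41377733 on the minus strand and that of Gm10334 is chr6:41446098-41446217 on the minus strand. The Prss1 window is chr6:41458810-41458929 on the plus strand, and that of Gm5771 is chr6:41392236-41392355 on the plus strand. The Try4 window is chr6:41302152-41302271 on the plus strand, and that of Prss2 is chr6:41521656-41521775 on the plus strand.

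The upstream sequences of the 4 genes of the shared probe set fell into 2 near-identical pairs. Over the 250 bases before the start, Prss3 and Gm10334 had the same base at 97.0% of 233 aligned positions, and Prss1 and Gm5771 at 98.3% of 230. Across the pairs the identity was between 54.6% and 58.1%. Try4 was nearer to Prss1 (70.1%) and Gm5771 (67.5%), and Prss2 had 54.4% to 59.0% with the other 5. As a reference for an alignment of this kind, Ctrb1 and Ctrl had 53.0% over 164 aligned positions. All 6 windows held TATAAA, against 12.4% of 32851 RefSeq promoter windows of the same length, and all 6 held CACCTG within 250 bases, against 17.2%, although in Prss3, Gm10334 and Prss2 it lies farther from the start than the bases printed. TTTCCC was found in Prss1, Gm5771 and Prss2, with 2 matches each, 1 of those of Prss1 beyond the bases printed, and not in the windows of Prss3, Gm10334 and Try4, against 21.9% of all windows. A match of this kind is a description of letters and not a measured binding site.

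**Figure D1:**
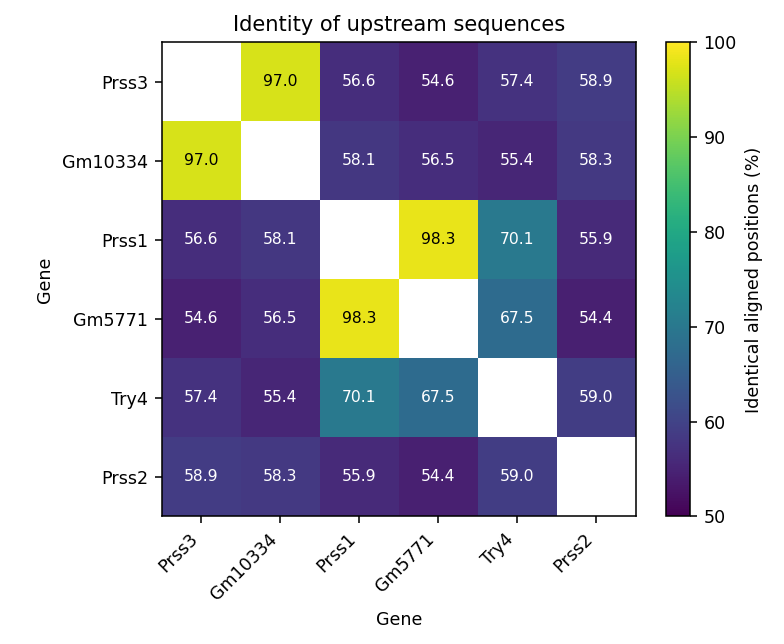
Percent of identical positions in pairwise alignments of the 250 bases before the RefSeq start of 6 trypsinogen genes, with the same gene order on both axes. Prss3 and Gm10334 (97.0%) and Prss1 and Gm5771 (98.3%) form 2 near-identical pairs, and every pair that joins Prss3 or Gm10334 to Prss1, Gm5771, Try4 or Prss2 lies at 58.9% or less.

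Among the members, the probe sets that name Prss3 stood apart. Both were higher in the methionine-deficient pool, by 0.48 and 0.33 on the log2 scale, whereas the other 9 members lay between -0.12 and 0.06. No member reached a 2-fold difference in either direction. Among the 22519 probe sets past the level filter 7.92% did. This filter is set on the mean log2 level of both arrays. Its bound is the median over probe sets that are not array controls, which corresponds to an intensity of 150. Of the 141 probe sets at least as bright as the dimmest member, 0 reached 2-fold, so at this brightness the members do not stand out by it. The median log2 difference over the 11 members was -0.06, with 4 higher and 7 lower, beside 0.01 over all probe sets past the filter. The error of each difference below is the robust SD between probe sets of 1 gene, 0.18 on the log2 scale for the brightest of 5 bins of probe sets, which covers probe noise within these arrays and nothing else. That bin starts at an intensity of 1477, far below the members. The same measure over the 25 pairs of probe sets at least as bright as the dimmest member was 0.024. These pairs include those of Prss2. Thus 0.18 is the wider of 2 possible errors. All 11 differences exceeded the narrower one, but this does not set the members apart. The median absolute log2 difference over all 141 probe sets at least as bright as the dimmest member was 0.046.

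**Figure D2:**
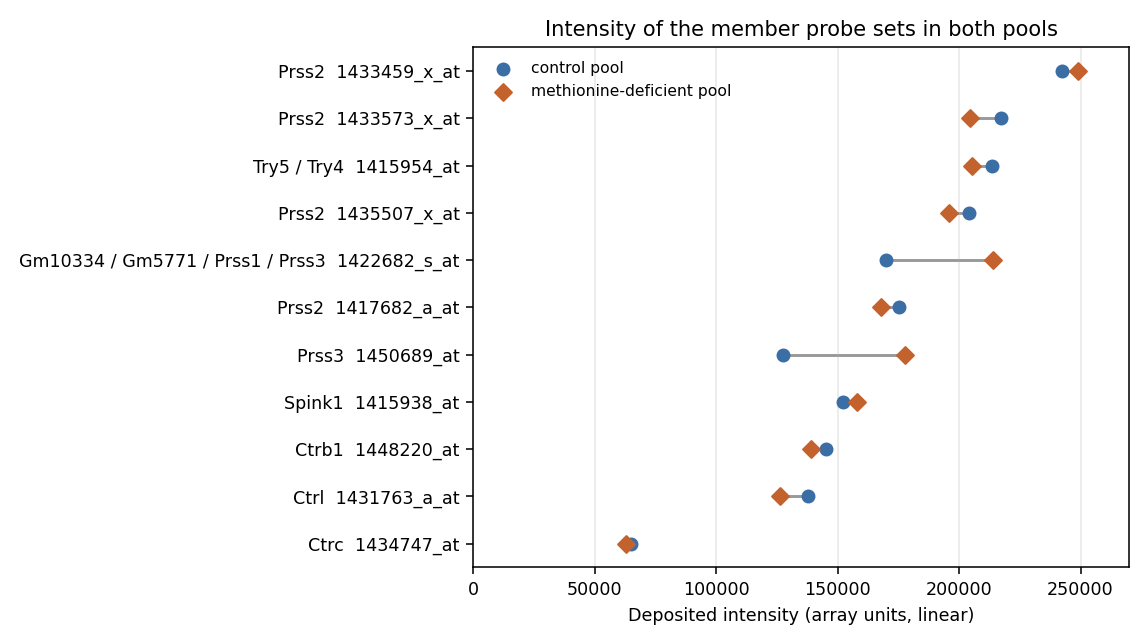
Deposited intensity (linear axis from 0) of the 11 member probe sets, with a circle for the control pool and a diamond for the methionine-deficient pool, 1 array each. The 2 probe sets that name Prss3 show the wide gaps, from 127298 to 177568 and from 170034 to 214074, while both symbols lie close together for the other 9.

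Prss3, a trypsinogen of the mouse cluster that bears the name of human mesotrypsin, had an intensity of 127298 in control and 177568 in methionine-deficient RNA in the probe set that names no other gene (1450689_at). This is a log2 difference of 0.48, or 1.39-fold, beside a probe-set spread of 0.18. Its place in the order of all probe sets moved from 58 to 31. The probe set shared with Prss1, which bears the name of human cationic trypsinogen, and with Gm5771 and Gm10334 (1422682_s_at) had 170034 and 214074, a log2 difference of 0.33 or 1.26-fold, and moved from place 36 to place 11. The methionine-deficient pool was thus the higher one in both. How the shared signal divides among its 4 genes cannot be read from it, and Prss1 has no probe set of its own here. Whether the single-gene Prss3 probe set also binds transcripts of Gm10334 or of other trypsinogen genes was not tested, since no transcript or probe sequences were compared.

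Prss2, which bears the name of human anionic trypsinogen, was read by 4 probe sets, which gave close log2 differences at unlike intensities. The brightest of them (1433459_x_at) had 242235 in control and 248933 in methionine-deficient RNA, a log2 difference of 0.04. The others were slightly lower in the methionine-deficient pool. The probe set 1433573_x_at had 217346 and 204558 (-0.09), and 1435507_x_at had 204135 and 195892 (-0.06). The fourth, 1417682_a_at, had 175371 and 167955 (-0.06). Over the 4 the log2 differences spanned 0.13, a range, which cannot be set directly against a spread given as an SD. The 3 with the suffix _x_at are marked by the array design as able to cross-hybridize, so they are not a clean reading of Prss2.

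Try4 and Try5, neighbouring trypsinogen genes, share 1 probe set (1415954_at), with 213636 in control and 205402 in methionine-deficient RNA. The log2 difference of -0.06 was below the wider spread and above the narrower one.

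Since a single factor applied to a whole array moves all its probe sets alike, the Prss3 values were also taken relative to the median log2 difference of the 4 Prss2 probe sets (-0.06). On that footing the single-gene Prss3 probe set was 1.46-fold higher (0.54 on the log2 scale) and the shared probe set 1.31-fold higher (0.39). The intensity of the single-gene Prss3 probe set was 0.604 times the median of the Prss2 probe sets in control and 0.887 times in methionine-deficient RNA. For the shared probe set these ratios were 0.807 and 1.07. They compare signals of different probes, so their change between the pools can be read and their size cannot. Such a change shows unequal differences and does not tell which of the transcripts differed.

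Other genes of the trypsinogen row gave 3 close signals and 1 higher one. 2210010C04Rik, a trypsinogen-like gene, had 3 probe sets with log2 differences of -0.05, -0.04 and -0.06, and the brightest had 253302 in control and 245404 in methionine-deficient RNA. The probe set shared by Gm2663 and 1810009J06Rik (1422918_at), trypsinogen-like genes at the far end of the row, had 4546 and 7685. Its log2 difference was 0.76, or 1.69-fold, beside a spread of 0.18, and its place moved from 1505 to 844. Of the 12 trypsinogen genes listed in the row 10 have a probe set. Prss3, Gm5771, Gm10334 and Prss1 follow each other in it, with the pseudogene Gm5409 among them, between Try10 on one side and Prss2 on the other. Prss1, Gm5771, Gm10334, Gm2663 and 1810009J06Rik are named only in probe sets shared with other genes, so a higher signal cannot be assigned to any 1 of them.

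**Figure D3:**
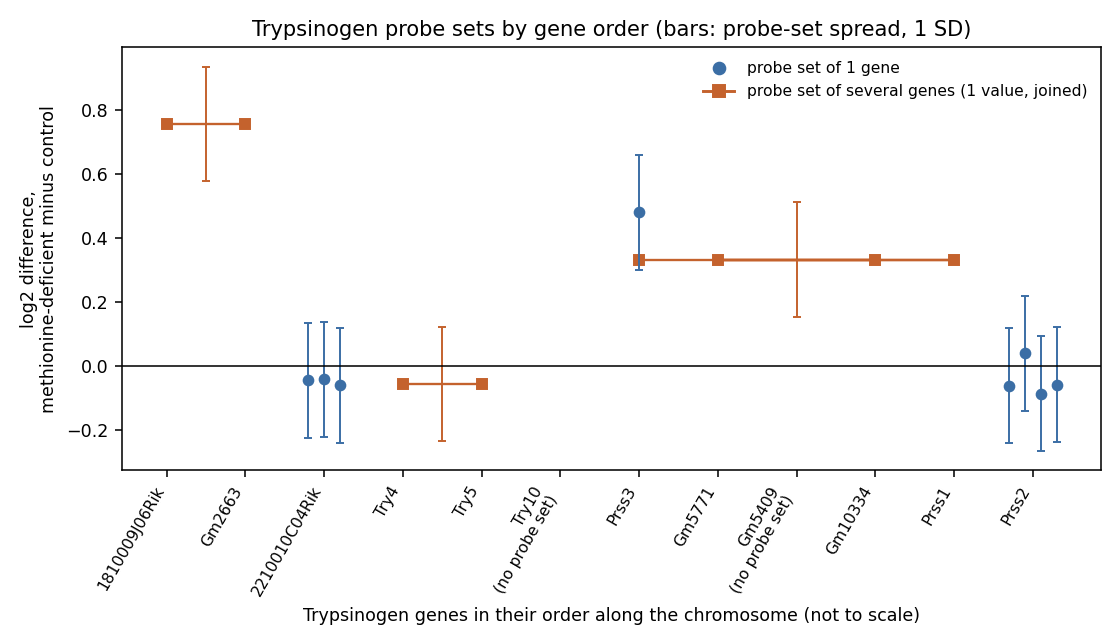
Log2 difference (methionine-deficient minus control) of the 7 trypsinogen member probe sets and 4 others of the row, placed at their genes in the order along the chromosome, not to scale. Circles are probe sets of 1 gene, joined squares are 1 value shared by several genes, and bars are the probe-set spread of 0.18. The values of 0.76, 0.48 and 0.33 stand above the rest, which lie between -0.09 and 0.04.

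The 3 chymotrypsinogen probe sets were all slightly lower in the methionine-deficient pool, each by less than the spread of 0.18 and by more than that of 0.024. Ctrb1, chymotrypsinogen B, had 145070 in control and 139181 in methionine-deficient RNA (log2 difference -0.06). Ctrl, a chymotrypsin-like protease, had 137654 and 126396 (-0.12), the lowest value among the members. Ctrc, chymotrypsin C, which is known in human pancreas to promote the breakdown of trypsinogen, had 64753 and 62836 (-0.04). In the RefSeq annotation of GRCm38.p6, whose reference strain C57BL/6J is also that of the mothers here, Ctrc is classed as a transcribed pseudogene, so its signal reads a transcript that this annotation does not count as coding for protein.

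Spink1, the trypsin inhibitor, had 152114 in control and 158078 in methionine-deficient RNA, a log2 difference of 0.06. This was within the spread of 0.18, as were 8 other members, and beyond that of 0.024, whereas the 2 probe sets naming Prss3 lay beyond both.

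All members were among the brightest signals of the pancreas. Their intensities ran from 62836 to 248933, where the highest of any probe set was 263446 in control and 266191 in methionine-deficient RNA, and the dimmest member, Ctrc, lay within the top 0.313% of 45037 probe sets that are not array controls. By mean level only 3 probe sets were brighter than the brightest Prss2 probe set, namely 1 shared by amylase genes of the Amy2a family, 1 of 2210010C04Rik and 1 of the kallikrein gene Klk1. The 20 brightest held 4 members in control and 5 in methionine-deficient RNA. From the top, the members in the control pool were Prss2 (places 5 and 10), the Try4 and Try5 probe set (13), Prss2 (15 and 32), the shared Prss1 and Prss3 probe set (36), Spink1 (46), Ctrb1 (48), Ctrl (50), Prss3 (58) and Ctrc (131). In the methionine-deficient pool the shared probe set stood second among the members, and Prss3 had passed Ctrl, Ctrb1, Spink1 and 1 Prss2 probe set. With 1 array per group the error of a single level was not measured, so which neighbours in this order differ is not known. Probe sets also differ in how strongly they bind, which makes this an order of signals and not of transcript amounts. The members together held 3.47% of the summed intensity of the control array and 3.55% of that of the methionine-deficient array.

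**Figure D4:**
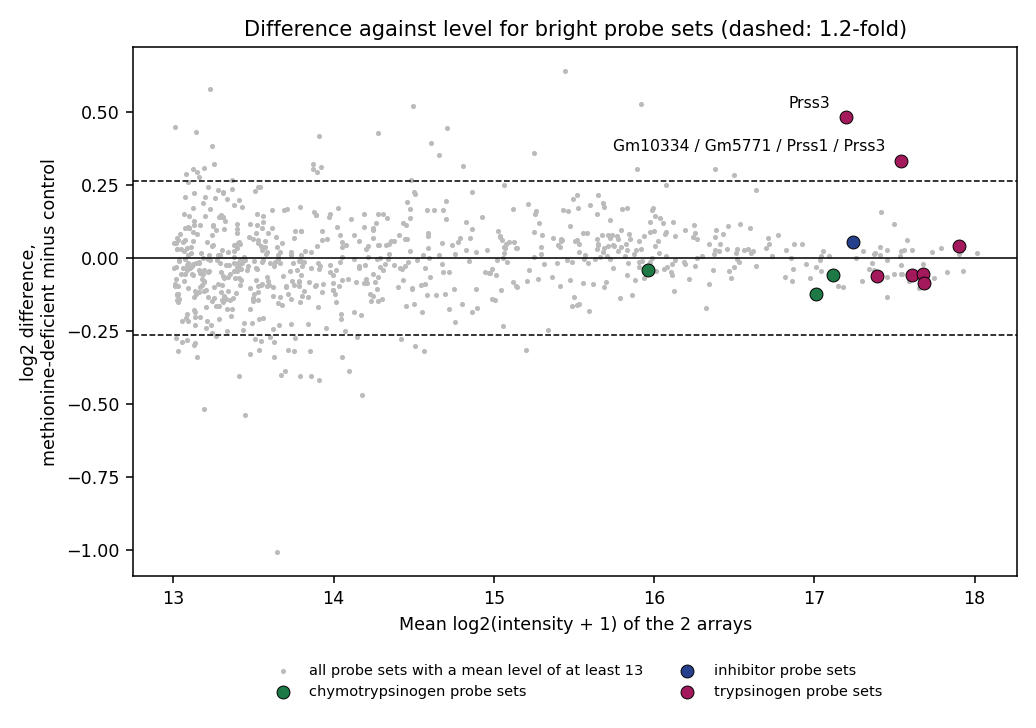
Log2 difference (methionine-deficient minus control) against the mean log2(intensity + 1) of both arrays for bright probe sets, in grey, with the members coloured by role and dashed lines at 1.2-fold. The 2 probe sets that name Prss3 lie at 0.48 and 0.33, above the upper line, and the other 9 members lie within the grey band between the lines.

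Signals this bright differed little between the arrays. There were 141 probe sets at least as bright as Ctrc, members included, and their log2 differences had a robust SD of 0.08. A difference of 1.2-fold was reached by 2.84% of them, that is by 4 probe sets, all higher in the methionine-deficient pool. These were the 2 that name Prss3, 1 shared by Rps16 and related sequences (0.30) and 1 of Rpl41 (0.28), both of ribosomal protein genes. Over all levels past the filter 26.8% of probe sets reached 1.2-fold in this direction, so a difference of this size was common at lower brightness. A narrower bound, the mean level of the single-gene Prss3 probe set, was set after seeing the data and rests on the Prss3 values themselves. It left 38 probe sets that are no members, with log2 differences from -0.13 to 0.16, below both Prss3 values. All 38 had at least 156857 in both pools, against 127298 for that Prss3 probe set in control. They are thus no matched set for it. Over the 130 that are no members and as bright as Ctrc, the log2 differences ran from -0.17 to 0.30. Near the top of an array's range a difference can be compressed, and its true size was not measured here.

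Genes listed for acting on trypsinogen or for being acted on by trypsin were counted through the brightest probe set of each gene. None of those past the level filter reached 2-fold, against 6.68% of 11848 genes. Of 5 activators and degraders 4 passed the filter, 3 higher and 1 lower, with a median log2 difference of 0.15, where that over all genes was close to 0. Ctsl, the lysosomal protease cathepsin L, which degrades trypsinogen, had 22907 in control and 29262 in methionine-deficient RNA (0.35), but its second probe set gave -1.15. Ctsb, cathepsin B, which can activate trypsinogen, had 6700 and 6869 (0.04), with a range of -0.74 to 0.36 over its 5 probe sets. Ctsd, the lysosomal aspartic protease cathepsin D, had 8833 and 7269 (-0.28). Tmprss15, the gene of enteropeptidase, had 7.01 and 86.8, below the filter, where background can set the value.

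Protease inhibitors other than Spink1 were lower in 9 of 11 cases past the filter, with a median of -0.08. Of all genes past the filter 50% were higher. Apart from Wfdc1 and Serpinb6a (-0.20, probe-set spread 0.18), each lower value lay within its probe-set spread. Serpinb1a (-0.05) also had a probe set at 0.30. Serpini2, an inhibitor made by acinar cells, had 122199 and 115527 (-0.08), Wfdc1 had the lowest value (-0.70, probe-set spread 0.46) and Spint1, an inhibitor at epithelial cell membranes, the highest (0.10). In the list of receptors and targets of trypsin 3 of 10 had higher and 7 lower values, the median being -0.05. The targets include Cpb1, procarboxypeptidase B, at 168534 and 164251 (-0.04). Also on this list was Gp2, the main membrane protein of zymogen granules and not a zymogen, at 213990 and 199016 (-0.10). F2rl1, the gene of the trypsin receptor, was not among the genes measured in this way. F2r, the thrombin receptor of the family to which the trypsin receptor belongs, was at 212 and 356, with both of its probe sets higher (0.41 and 0.75), and F2rl2 of the same family had the lowest value (-0.18, probe-set spread 0.77). Of 9 other chymotrypsin-like and kallikrein proteases past the filter 4 had higher and 5 lower values, the median being -0.02. Klk1, tissue kallikrein, had 245324 and 249554 (0.02, with a range of -0.32 to 0.43 over 4 probe sets). Prss23 had 1902 and 2861 (0.59, with a range of -0.10 to 0.83 over 3 probe sets). St14, the membrane protease matriptase, had 1173 and 902 (-0.38, probe-set spread 0.31). The several-gene probe sets do not enter these counts, and the list of other trypsinogen genes then held only 2210010C04Rik (-0.05).

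The defining markers of the acinar cell were bright, as the tissue label implies, and all 11 measured were past the filter, with intensities from 3559 to 243353, 6 higher and 5 lower, and a median of 0.01. Ptf1a, the acinar transcription factor, was among the lower ones at -0.32, and so was Rbpjl at -0.24, both beyond the probe-set spread of 0.18. Bhlha15 (0.16) and Nr5a2 (0.09) were among the higher ones, within that spread, and Bhlha15 also had a probe set at -0.29. Markers of other cell types differed in part between the pools, and none was listed at 0. Summed over all measured markers, duct signals were 1479 in control and 1812 in methionine-deficient RNA (3 of 3 past the filter higher), and intestinal ones 807 and 1406 (3 of 4 higher). Of the duct markers Krt7 (0.74) and Sox9 (0.62) lay just beyond their spread of 0.60, and Krt19 (0.19) within its 0.31. Cftr, below the filter, went the other way, at 129 and 46.2. Among intestinal markers Alpi (1.22, spread 0.46) and Vil1 (0.98, spread 0.77) lay beyond the spread, and Fabp2, at 8.65 and 95.5, was below the filter. The islet markers summed to 173905 and 181487 (2 of 6 higher), macrophage markers to 5252 and 6808 (3 of 5 higher), and those of stellate cells and fibroblasts to 20820 and 21047 (4 of 5 higher). B cell and plasma cell markers summed to 11012 and 5867 (5 of 6 lower), and adipocyte markers to 2541 and 1831 (2 of 2 lower). The ratio of 3' to 5' signal, a sign of RNA quality, was 1.46 and 1.76 for Actb and 0.973 and 1.11 for Gapdh. The part of these shifts in the Prss3 difference was not tested, and in pooled tissue a different share of cells and a different amount of RNA per cell cannot be told apart.

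The direction of both Prss3 probe sets stayed the same under all 6 other scalings and pseudocounts tried. The pseudocount of 16 could not change the direction of signals this bright, so it is no check on them. The log2 differences ran from 0.30 to 0.50 for the single-gene probe set and from 0.15 to 0.35 for the shared one. The low ends come from scaling to the poly-A spike-in controls, which are bacterial RNAs mixed into a sample ahead of labelling. These controls were higher in 23 of 24 probe sets, with a median of 0.18, and scaling to them puts the shared probe set within the spread of 0.18. Under the same scaling Spink1 came to -0.13 and the brightest Prss2 probe set to -0.14, and with median centring that Prss2 probe set came to -0.01, so the small positive values of these 2 have no settled direction. The values relative to Prss2 cannot change where a whole array is shifted by a constant, as in median centring and in scaling to either kind of control. With quantile and loess scaling and the pseudocount of 16 they were 0.54 for the single-gene probe set and 0.39 for the shared one.

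**Figure D5:**
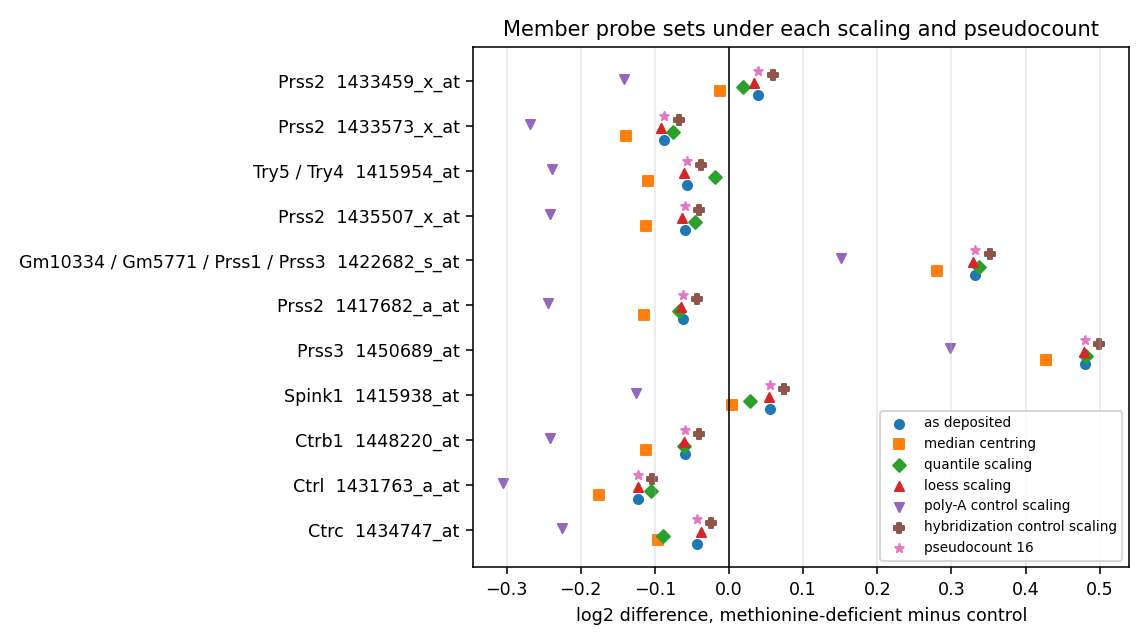
Log2 difference (methionine-deficient minus control) of each member probe set as deposited and under 5 other scalings and a pseudocount of 16, with 1 symbol per setting. Scaling to the poly-A controls shifts all members down by 0.18, and the 2 probe sets that name Prss3 stay above 0 in each setting, at 0.15 or more.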

How the data were processed

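RNA was pooled per group and each pool was read on 1 array, per the labels, which also name Trizol extraction and a 3' IVT labelling kit. The authors deposited 1 linear intensity for each probe set, with software and background correction not given in the sources used here. Both arrays have the same mean (500.003) after trimming 2% at each end of the values, so a difference in total RNA would not be seen. Probe sets were named through the platform annotation of 2016, with symbols updated through gene identifiers. Values were taken to log2(intensity + 1), without further scaling, and no test was possible with 1 array per group. Precision is limited by the number of arrays. The probe-set spread came from 1162 pairs of probe sets in the brightest of 5 bins of level, and its estimation and the counting were tested on simulated data. A level filter at the median of all probe sets (intensity 150) left 22519 probe sets and 11848 genes, each gene read by its brightest single-gene probe set.

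Upstream sequences came from RefSeq (GRCm38.p6) and were aligned with Biopython 1.88, end gaps free. The members, the lists (other trypsinogens, activators and degraders, inhibitors, receptors and targets, other proteases, and markers of 8 cell types) and the tests were chosen with earlier results of these data known. All member probe sets were reported. From the lists, genes were named by largest difference in a direction or by their role. Other settings tried were scaling by loess, by quantiles or by each array's median, a pseudocount of 16, other fold sizes, other level filters, the mean over probe sets and the exclusion of probe sets that bind several genes. Scaling to array controls and the comparison with probe sets as bright as the single-gene Prss3 probe set were added after seeing the data. Computations used Python 3.11.15, numpy 2.4.6, pandas 2.3.3, scipy 1.17.1, statsmodels 0.14.6 and matplotlib 3.10.9.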

Additional observations from a re-analysis of the deposited data

How the results depend on the processing

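No paired analysis was possible because each group is 1 pool on 1 array. With median centring, quantile or loess scaling, scaling to the hybridization controls and a pseudocount of 16, each member probe set moved by less than the probe-set spread of 0.18. With scaling to the poly-A controls, chosen after seeing the data, the median over the members was -0.24, and the list medians were -0.23 for other trypsinogens, -0.029 for activators and degraders, -0.26 for inhibitors, -0.23 for receptors and targets and -0.20 for other proteases. This follows from the common shift of 0.18. With the mean over probe sets the median of activators and degraders was -0.21, so its direction is not settled, and Ctsl has probe sets of opposite sign. At 1.2-fold in either direction 2 of the 11 members were counted, and 0 at 1.5-fold. Of the 22519 probe sets past the filter at the median, 11584 reached 1.2-fold. Of the 141 at least as bright as the dimmest member 4 did. Of all probe sets and genes past the filter at the median, 5006 probe sets and 2302 genes reached 1.5-fold. At 2-fold the counts were 14447 and 4325 without a level filter and 156 and 90 with the filter at the 75th percentile, against 1783 and 791 with the filter at the median, since dim probe sets differ more. Detection calls were not used, and the number of arrays, not depth, limits these values.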
